A study of Caenorhabditis elegans with 12 samples.

Results

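The genes that build sphingolipids were followed across 4 genotypes of Caenorhabditis elegans by RNA sequencing of whole worms. They were chosen by name and found by their WormBase identifiers, and they are 10 of the 46739 genes in the count tables. They encode 3 subunits of serine palmitoyltransferase (sptl-1, sptl-2 and sptl-3), 3 ceramide synthases (hyl-1, hyl-2 and lagr-1), a desaturase (ttm-5), 2 ceramide glucosyltransferases (cgt-1 and cgt-3) and a sphingomyelin synthase (sms-1). The worms were grown at 20 °C and collected at the late L4 larval stage. They were wild-type N2, eat-2(ad465) in strain DA465, acs-20(tm3232) in strain DCL29, and strain DCL33, the double mutant that carries both alleles, with 3 libraries per genotype and no treatment. Each mutant genotype is represented by 1 strain. The mutation in eat-2, a nicotinic receptor subunit gene of pharyngeal muscle, slows feeding and serves as a model of dietary restriction. The product of acs-20 activates fatty acids taken up by the cell and is needed for the cuticle's barrier.

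Sphingolipid synthesis starts at the endoplasmic reticulum, where serine palmitoyltransferase joins serine to a fatty acyl-CoA. In C. elegans that acyl chain is a branched one, which gives the worm its characteristic iso-branched sphingoid bases. Ceramide synthases then attach a second fatty acid, a desaturase converts dihydroceramide to ceramide, and ceramide receives either glucose or phosphocholine to become glucosylceramide or sphingomyelin. Glucosylceramide made in the intestine is needed for apical membrane polarity and for growth, and ceramides of different chain length affect survival without oxygen and lifespan in this animal.

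Counts in genes ran from 7116623 to 12016769 per library. Values below are CPM, counts scaled to the library total with TMM factors (a normalization between libraries), and SD refers to the 3 libraries of a genotype. The acs-20 gene was read 678 to 1333 times per library and did not differ between acs-20 and wild-type (log2 fold change -0.15, SE 0.135, adjusted p = 0.658), and eat-2 had at most 4 reads in the libraries of any genotype together, so neither gene's count could check the labels. Markers of intestine, epidermis, pharyngeal muscle, body wall muscle, neurons and germline were read in all 4 genotypes, with none of the 18 at 0 in any. The 2 adult-stage markers, vit-2 and col-19, summed to 1258 to 3784 CPM in wild-type and 105 to 259 in eat-2. The sum was 1133 to 4649 in acs-20 and 299 to 769 in the double mutant. In wild-type the mean was 2309 CPM for vit-2 and 333 for col-19. By edgeR's test, vit-2 was called lower than wild-type in eat-2 (adjusted p = 0.0069) and in the double mutant (adjusted p = 0.025). It was not called in acs-20, and col-19 was called in no mutant against wild-type. col-19 alone was 109 to 581 CPM in wild-type, 41.0 to 79.5 in eat-2, 64.0 to 409 in acs-20 and 78.1 to 274 in the double mutant. In whole worms, fewer cells of a type and less RNA per cell cannot be told apart.

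In the WBcel235 annotation sptl-1 (WBGene00016020) and cgt-3 (WBGene00019127) lie on chromosome II, lagr-1 (WBGene00006505) and ttm-5 (WBGene00013197) on chromosome I, and hyl-1 (WBGene00002043) and sms-1 (WBGene00004892) on chromosome IV. sptl-2 (WBGene00018398), sptl-3 (WBGene00011932) and cgt-1 (WBGene00011517) lie on chromosome V, and hyl-2 (WBGene00002044) on X. In wild-type the 10 transcripts covered a wide range of levels per kb of exon. sptl-1 was the highest of the 10 at 90.9 ± 8.86 CPM per kb (SD, n = 3). cgt-3 at 50.6 ± 1.19, hyl-1 at 44.0 ± 4.47 and hyl-2 at 40.8 ± 2.73 came next, and the libraries of hyl-1 and hyl-2 overlapped. sptl-3 stood at 30.8 ± 3.62 CPM per kb. sms-1 at 15.5 ± 1.18, sptl-2 at 14.5 ± 1.88 and ttm-5 at 13.6 ± 3.42 lay within each other's spread. The lowest were cgt-1 at 2.88 ± 0.605 and lagr-1 at 1.41 ± 0.52 CPM per kb. The exons of these genes, 1233 to 2697 bases in all per gene, overlap no gene on the opposite strand in the WBcel235 annotation. On the same strand cgt-3 shares 15 bases with a piRNA gene and sms-1 shares 100 bases with a noncoding RNA gene.

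**Figure D1:**
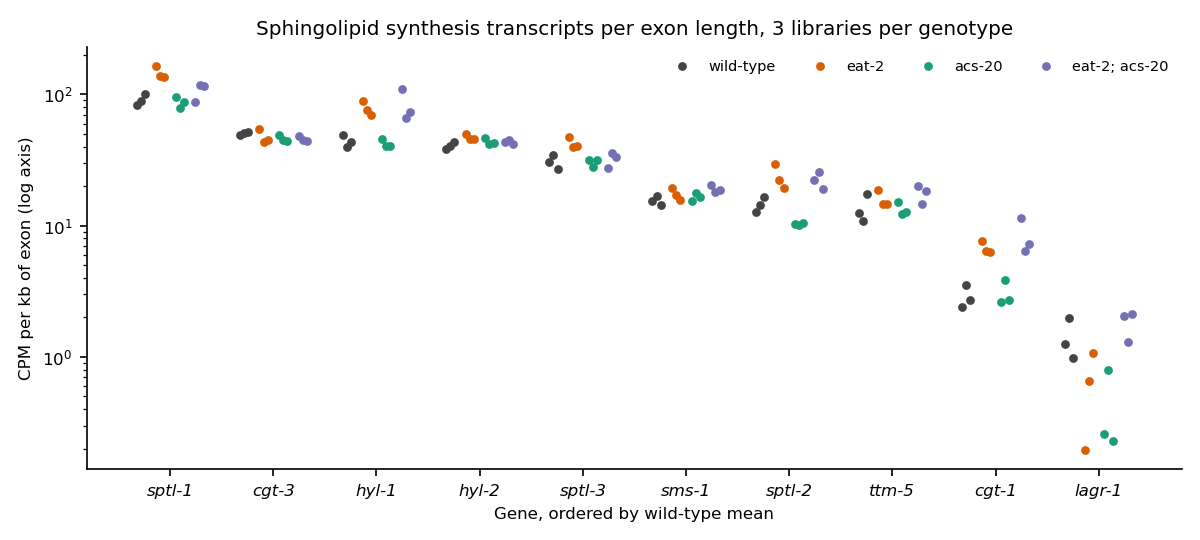
Level of each of the 10 genes in CPM per kb of exon on a log axis, 1 dot per library, coloured by genotype and ordered by the wild-type mean. sptl-1 is highest in wild-type at 90.9 CPM per kb, and cgt-1 and lagr-1 are the lowest at 2.88 and 1.41.

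The first step, serine palmitoyltransferase, was higher in eat-2 than in wild-type in each of its 3 genes, where 4.12% of all tested genes were called higher (adjusted p under 0.05). sptl-1, which encodes the subunit related to mammalian SPTLC1, read 127, 137 and 153 CPM for wild-type, 251, 210 and 209 for eat-2, 147, 121 and 134 for acs-20, and 133, 182 and 177 for the double mutant. All 3 eat-2 libraries lay above every library of the other genotypes, while the double mutant overlapped wild-type and acs-20. Such statements on overlap, here and below, describe the libraries and are not tests. The share of all tested genes that separate is given only for libraries with the eat-2 mutation against those without it. The change in eat-2 against wild-type was a log2 fold change of 0.68 (SE 0.132, 1.61-fold, adjusted p = 0.00607), and it stayed past the threshold in 12 of 12 fits that left out a library. In these fits, here and below, each of the 12 libraries was left out in turn, also those of genotypes outside the comparison. The double mutant was 0.24 (SE 0.132, adjusted p = 0.24) against wild-type and -0.44 (SE 0.132, adjusted p = 0.113) against eat-2, neither past the threshold. The order of the means was eat-2, double mutant, wild-type and acs-20, and of the neighbouring pairs in that order none differed past the threshold.

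sptl-2 and sptl-3 encode the other type of subunit, related to mammalian SPTLC2. sptl-2 read 34.3, 38.9 and 44.4 CPM for wild-type, 80.1, 59.7 and 52.0 for eat-2, 27.9, 27.2 and 28.1 for acs-20, and 59.6, 68.8 and 51.4 for the double mutant. The 6 libraries with the eat-2 mutation, at 51.4 to 80.1 CPM, lay above the 6 without it, at 27.2 to 44.4, and within the latter the acs-20 libraries lay below wild-type. The log2 fold change was 0.70 (SE 0.155, adjusted p = 0.0135) in eat-2 against wild-type and 1.11 (SE 0.159, adjusted p = 0.000723) in the double mutant against acs-20. Against wild-type the double mutant rose by 0.61 (SE 0.155, adjusted p = 0.015), and acs-20 was -0.50 (SE 0.159, adjusted p = 0.149), not past the threshold. The eat-2 call ended without wild-type replicate 1 (adjusted p = 0.0722) or eat-2 replicate 1 (0.0511), and the call in the double mutant against wild-type without wild-type replicate 1 (0.0743) or double mutant replicate 2 (0.0818). The order of the means was eat-2, double mutant, wild-type and acs-20. eat-2 and the double mutant did not differ past the threshold, nor did wild-type and acs-20.

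sptl-3 showed a smaller change. Its libraries read 59.5, 67.0 and 53.0 CPM for wild-type, 92.7, 76.6 and 78.5 for eat-2, 61.0, 54.6 and 61.3 for acs-20, and 53.6, 69.5 and 64.7 for the double mutant. The eat-2 libraries stood above all 9 others, which overlapped one another across genotypes. By edgeR's test, the log2 fold change in eat-2 was 0.46 against wild-type (SE 0.122, adjusted p = 0.0327) and 0.49 against acs-20 (SE 0.123, adjusted p = 0.0204). The first of these calls was lost in 6 of 12 fits that left out a library: wild-type replicates 1 (0.108) and 3 (0.125), eat-2 replicates 1 (0.129) and 3 (0.0616), acs-20 replicate 3 (0.0503) and double mutant replicate 3 (0.0517). It was also lost when the compared groups alone were fitted (0.44, adjusted p = 0.061), which left 4 members called. The second was lost without eat-2 replicate 1 (0.0963), acs-20 replicate 2 (0.0864) or acs-20 replicate 3 (0.0535). The double mutant was 0.066 (SE 0.122, adjusted p = 0.76) against wild-type and -0.40 (SE 0.122, adjusted p = 0.126) against eat-2.

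**Figure D2:**
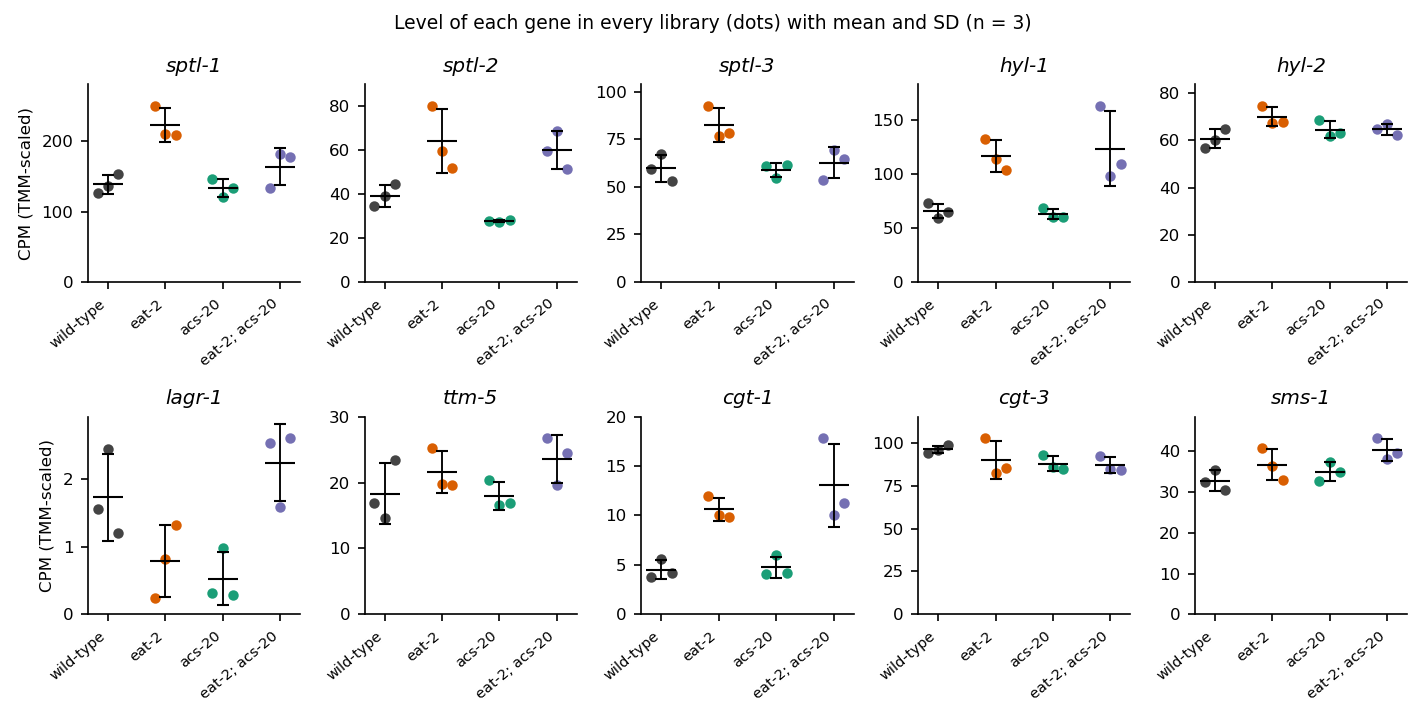
CPM of each gene in every library (dots, by genotype) with the mean and SD of 3 libraries (black); each panel has its own axis from 0. The libraries carrying the eat-2 mutation lie above all others for sptl-2, hyl-1 and cgt-1, and the eat-2 single mutant alone does so for sptl-1 and sptl-3.

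Of the ceramide synthases, hyl-1 rose in both genotypes that carry the eat-2 mutation. This enzyme favours long acyl chains, and its loss extends lifespan together with loss of lagr-1. hyl-1 read 72.5, 59.3 and 64.4 CPM for wild-type, 132, 113 and 104 for eat-2, 67.9, 60.4 and 60.0 for acs-20, and 163, 97.6 and 109 for the double mutant. Every library with the eat-2 mutation, at 97.6 or more, exceeded every library without it, at 72.5 or less. The log2 fold change was 0.83 (SE 0.166, adjusted p = 0.00761) in eat-2 against wild-type, 0.91 (SE 0.166, adjusted p = 0.00232) in the double mutant against wild-type, and 0.97 (SE 0.167, adjusted p = 0.00254) in the double mutant against acs-20. These 3 calls held in all 12 fits that left out a library. acs-20 stood at -0.058 against wild-type (95% interval -0.42 to 0.30), and the double mutant at 0.080 against eat-2 (-0.27 to 0.43).

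hyl-2, whose enzyme makes ceramides of shorter chain and protects against lack of oxygen, varied little. Its libraries read 56.7, 60.3 and 64.8 CPM for wild-type, 74.7, 67.3 and 67.9 for eat-2, 68.8, 61.9 and 63.0 for acs-20, and 64.9, 66.9 and 62.2 for the double mutant. The eat-2 libraries lay above the wild-type libraries but overlapped those of acs-20. By edgeR's test, the log2 fold change in eat-2 against wild-type was 0.21 (SE 0.0894, adjusted p = 0.193), with a 95% interval of 0.015 to 0.40. The double mutant was at 0.094 against wild-type (-0.098 to 0.29) and 0.0022 against acs-20 (-0.19 to 0.19), so hyl-2 passed the threshold in no comparison while hyl-1 rose in both. The difference between the genes was not tested.

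lagr-1, the third member of the ceramide synthase family, was near the limit of detection, with 2 to 32 reads per library. It read 1.56, 2.448 and 1.203 CPM for wild-type, 0.241, 0.814 and 1.32 for eat-2, 0.317, 0.98 and 0.281 for acs-20, and 2.53, 1.59 and 2.62 for the double mutant. The 2 single mutants were low and the double mutant stood with wild-type, with overlap between wild-type and eat-2 but not between the double mutant and either single mutant. The log2 fold change was -1.07 (SE 0.497, adjusted p = 0.232) in eat-2 and -1.67 (SE 0.546, adjusted p = 0.165) in acs-20 against wild-type, and 2.03 (SE 0.528, adjusted p = 0.0234) in the double mutant against acs-20. That call ended without acs-20 replicate 1 (0.0973), acs-20 replicate 3 (0.0921), double mutant replicate 1 (0.0675) or double mutant replicate 3 (0.0585). The gene reached the filter level of 1.02 CPM in 7 libraries, 3 of wild-type, 3 of the double mutant, 1 of eat-2 and none of acs-20, so it was tested because of the genotypes in which it was high. Its interaction value was 3.10 (SE 0.727, adjusted p = 0.122), with adjusted p from 0.00167 to 0.352 over 17 alternatives. It was past the threshold in 3 of them: DESeq2 (0.0219), the fit with no filter on low counts (0.00167) and the fit without acs-20 replicate 2 (0.0341).

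The desaturase gene ttm-5, named as a target of the p38 pathway in the response to pore-forming toxin, did not pass the threshold in any comparison. It read 16.9, 14.6 and 23.5 CPM for wild-type, 25.3, 19.8 and 19.7 for eat-2, 20.4, 16.6 and 17.0 for acs-20, and 26.8, 19.7 and 24.5 for the double mutant. All 4 genotypes overlapped wild-type. By edgeR's test, the log2 fold change against wild-type was 0.24 (95% interval -0.15 to 0.63) in eat-2, -0.025 (-0.42 to 0.37) in acs-20 and 0.37 (-0.019 to 0.75, adjusted p = 0.183) in the double mutant. Without wild-type replicate 3, the highest of that group, the last value was 0.58 (adjusted p = 0.0454).

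At the step that adds glucose, cgt-1 was called higher in both genotypes with the eat-2 mutation and cgt-3 in no comparison. The difference between the genes was not tested. cgt-1 read 3.73, 5.55 and 4.21 CPM for wild-type, 11.9, 10 and 9.89 for eat-2, 4.12, 5.99 and 4.21 for acs-20, and 17.9, 10.01 and 11.3 for the double mutant. Libraries with the eat-2 mutation, at 9.89 to 17.9, stood above those without it, at 3.73 to 5.99. This was the largest increase against wild-type among the 10 genes in both genotypes, with a log2 fold change of 1.23 in eat-2 (SE 0.246, 2.34-fold, adjusted p = 0.00741) and 1.52 in the double mutant (SE 0.242, 2.86-fold, adjusted p = 0.000906). Against acs-20 the double mutant was higher by 1.43 (SE 0.245, adjusted p = 0.00231), and these 3 calls held in all 12 fits that left out a library.

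cgt-3 was the more abundant transcript of the pair. It read 94.0, 96.1 and 98.6 CPM for wild-type, 103, 82.6 and 85.3 for eat-2, 92.9, 86.2 and 84.7 for acs-20, and 92.4, 84.9 and 84.4 for the double mutant. The acs-20 and double mutant libraries lay below wild-type, and eat-2 overlapped it. The log2 fold change against wild-type was -0.092 in eat-2 (95% interval -0.30 to 0.12), -0.13 in acs-20 (-0.34 to 0.079) and -0.14 in the double mutant (-0.35 to 0.066).

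The sphingomyelin synthase gene sms-1 read 32.6, 35.5 and 30.5 CPM for wild-type, 40.8, 36.5 and 33.1 for eat-2, 32.6, 37.4 and 35.1 for acs-20, and 43.3, 38.2 and 39.7 for the double mutant. The double mutant libraries stood above all wild-type and acs-20 libraries, and the single mutants overlapped wild-type. The log2 fold change of 0.30 in the double mutant (SE 0.107, 95% interval 0.066 to 0.53) had an adjusted p of 0.0733, not past the threshold. It was 0.16 (-0.070 to 0.39) in eat-2 and 0.093 (-0.14 to 0.33) in acs-20.

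Counted together, 5 of the 10 genes rose in eat-2 against wild-type and none fell (sptl-1, sptl-2, sptl-3, hyl-1 and cgt-1), where 4.12% of all 14390 tested genes rose and 3.54% fell. All 10 genes passed the filter on low counts. Their median log2 fold change was 0.35, and that of all tested genes 0.04. The count was 3 without wild-type replicate 1 or without eat-2 replicate 1. In the double mutant against acs-20, a comparison that shares no library with the first, 4 rose (sptl-2, hyl-1, lagr-1 and cgt-1) and none fell, where 7.64% of all genes rose and 5.31% fell. Of these 4, lagr-1 reached the filter level in no acs-20 library and in all 3 of the double mutant, so it was tested through the genotypes in which it was high, and its call was lost in 4 of 12 fits that left out a library. The count without lagr-1 was 3. sptl-2, hyl-1 and cgt-1 rose in both, as did 2.97% of all tested genes. These 3 were also the members whose 6 libraries with the eat-2 mutation lay above the 6 without it, a separation that 5.19% of tested genes showed in that direction. These counts describe genes chosen by name with earlier results of these data known, and they are not a test of the list.

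In the double mutant against wild-type 3 of the 10 genes rose (sptl-2, hyl-1 and cgt-1) and none fell, where 8.94% of tested genes rose and 8.62% fell. Their median log2 fold change was 0.33, and that of all tested genes 0.039. The count was 2 without wild-type replicate 1 or without double mutant replicate 2. This comparison shares its wild-type libraries with that of eat-2. Set directly against acs-20, the eat-2 single mutant had the 3 sptl genes, hyl-1 and cgt-1 higher and none lower, where 7.03% of all genes were higher and 3.92% lower.

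**Figure D3:**
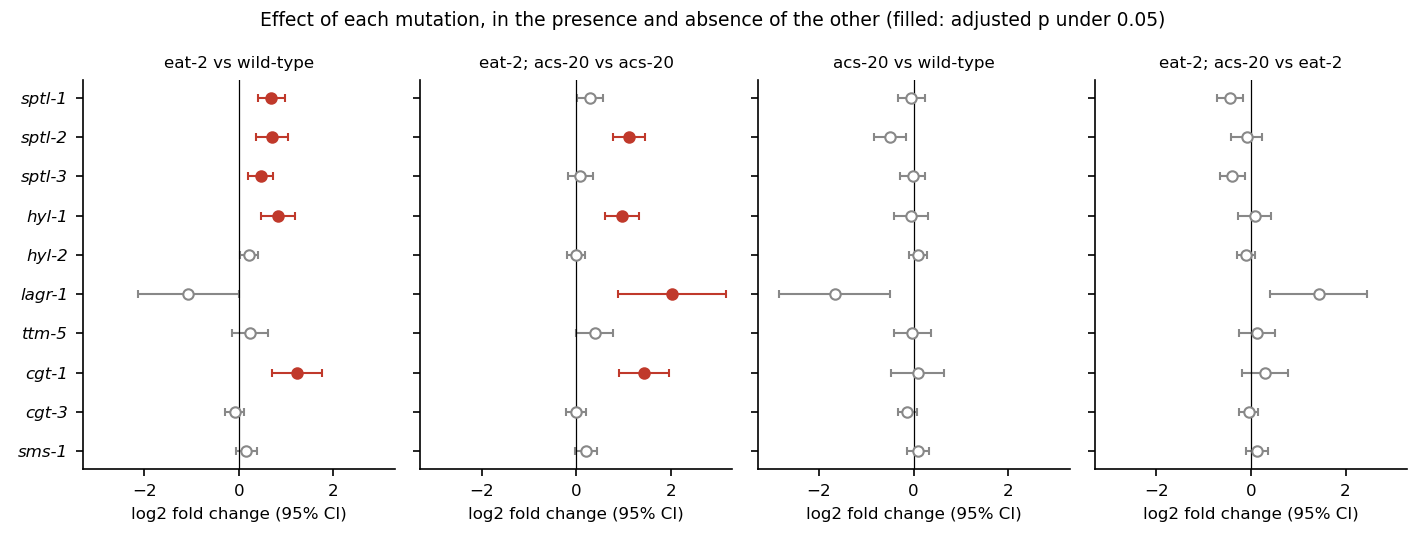
Log2 fold change of each gene with its 95% interval; the left pair of panels gives the effect of the eat-2 mutation with acs-20 intact or mutated, the right pair that of the acs-20 mutation with eat-2 intact or mutated. Filled red points, 5 and 4 in the left pair and none in the right pair, have an adjusted p under 0.05.

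In acs-20 against wild-type edgeR's quasi-likelihood test called 0 of the 10 genes, against 2.21% of all tested genes (0.987% higher, 1.22% lower), and DESeq2 also called 0. At an unadjusted p under 0.05 there were 2, sptl-2 and lagr-1, both lower in acs-20, and 14% of all tested genes met that limit. sptl-2 (adjusted p = 0.0106) and lagr-1 (0.0322) were called in the fit with no filter on low counts. In the double mutant against eat-2 edgeR called 0 of 10, against 2.11% of all genes, and 3 had an unadjusted p under 0.05, where 13.3% of all tested genes did: sptl-1 and sptl-3 lower and lagr-1 higher in the double mutant. DESeq2 called sptl-1 there (adjusted p = 0.0496), and the fit with no filter called sptl-1 (0.0157), sptl-3 (0.0489) and lagr-1 (0.0448).

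Whether the 2 mutations act together was asked with the interaction, the change from acs-20 to the double mutant minus the change from wild-type to eat-2. edgeR called 0 of the 10 genes, where 0.188% of all genes were called, and DESeq2 called 1 (lagr-1). At an unadjusted p under 0.05 there were 2 (sptl-3 and lagr-1), where 7.32% of all tested genes met that limit. For sptl-1 and sptl-3 the interaction was -0.39 (95% interval -0.79 to 0.010) and -0.38 (-0.75 to -0.0052), with adjusted p of 0.699 and 0.673. For sptl-2 it was 0.41 (-0.065 to 0.88), and for hyl-1 and cgt-1 0.14 (-0.37 to 0.64) and 0.20 (-0.54 to 0.95). These intervals are wide beside the changes themselves.

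Ratios between the genes compare transcripts within a library and do not depend on scaling between libraries. They are given per kb of exon, without a test. The ratio of hyl-2 to hyl-1 was 0.783 to 1.02 in wild-type, 1.01 to 1.05 in acs-20, 0.565 to 0.656 in eat-2 and 0.399 to 0.686 in the double mutant. Transcripts of the 2 main ceramide synthases were thus near parity without the eat-2 mutation, and hyl-1 was the more abundant in all 6 libraries with it. The ratio of cgt-3 to cgt-1 was 14.1 to 20.4 in wild-type, 11.7 to 18.3 in acs-20, 6.74 to 7.05 in eat-2 and 4.23 to 6.93 in the double mutant. cgt-3 remained the more abundant in all 12 libraries.

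For the subunits of serine palmitoyltransferase, the ratio of sptl-2 to sptl-1 was 0.154 to 0.164 in wild-type and 0.141 to 0.181 in eat-2. It was 0.108 to 0.127 in acs-20 and 0.165 to 0.254 in the double mutant. The acs-20 libraries lay below all others, and those of eat-2 and wild-type overlapped. sptl-3 exceeded sptl-2 in all 12 libraries, by a ratio of 1.65 to 2.40 in wild-type, 1.60 to 2.09 in eat-2, 2.78 to 3.03 in acs-20 and 1.25 to 1.74 in the double mutant. Between the branches after ceramide, sms-1 was 0.278 to 0.331 of cgt-3 in wild-type, 0.348 to 0.397 in eat-2, 0.315 to 0.39 in acs-20 and 0.404 to 0.422 in the double mutant. The double mutant libraries had the highest ratios and did not overlap those of any other genotype.

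**Figure D4:**
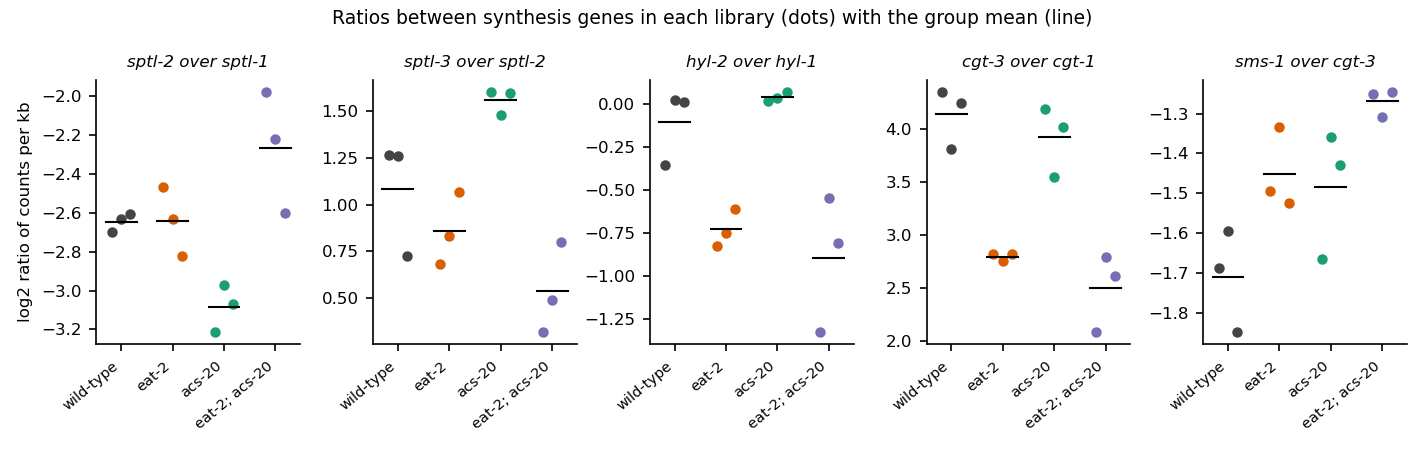
Log2 ratio of counts per kb between pairs of the genes in every library (dots) with the genotype mean (line); each panel has its own axis. The ratios of hyl-2 to hyl-1 and of cgt-3 to cgt-1 are lower in the 6 libraries with the eat-2 mutation than in the 6 without it.

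Over the 12 libraries, hyl-1 and cgt-1 had the most similar profiles among the 45 pairs of members, with a Pearson correlation of log2 CPM of 0.92. sptl-1 and sptl-3 followed at 0.88, and sptl-2 and hyl-1 at 0.83. cgt-3 and cgt-1 stood at -0.17, and the lowest was hyl-2 with lagr-1 at -0.55. Genotype and shared scaling enter all of these values, which are descriptions over 12 libraries. Of all tested genes, those with profiles most like hyl-1 were cbp-2 (0.98), pals-39 (0.97) and tsp-1 (0.97). For sptl-2 they were C53B7.3 (0.98), F49E2.5 (0.98) and R02F2.8 (0.97), for cgt-1 T19C4.5, F33H12.7 and C51E3.10 (all 0.97), and for sptl-1 tmem-135, unc-47 and T12G3.2 (0.94, 0.93 and 0.93). The nearest profile to sptl-3 was that of sptl-1, before rege-1 and drp-1 (both 0.87). For lagr-1 they were F20B10.3 (0.92), oig-3 (0.87) and myo-5 (0.87).

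Genes around this pathway were taken from 4 further lists. Of 6 other genes for synthesis and transport, 5 were tested and 1 name, cert-1, had no match in the annotation. The 5 were the glucosyltransferase gene cgt-2, sms-2, sms-3, sms-5 and the desaturase-like gene F33D4.4. None was called in eat-2, acs-20 or the double mutant against wild-type by edgeR or DESeq2, with 3, 1 and 2 at an unadjusted p under 0.05. Of all tested genes, 21.5%, 14% and 31% met that limit in the same order. cgt-2, unlike cgt-1, was lower in the double mutant than in acs-20 (-0.76, SE 0.207, adjusted p = 0.0278) and lower in eat-2 than in acs-20 (-0.95, SE 0.212, adjusted p = 0.0102). It was named after its values were seen. Of the 5 bre genes, 4 of which lengthen the sugar chain of glycosphingolipids while bre-1 supplies fucose, edgeR and DESeq2 called none against wild-type, and none had an unadjusted p under 0.05 in any of the 3 genotypes.

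Of 14 breakdown genes, 13 were tested (asm-3 was not). By edgeR 4 of the 13 rose and none fell in eat-2 against wild-type, where 4.12% of all tested genes rose and 3.54% fell, and the other 9 were not called. DESeq2 called 4 higher and 1 lower there. In acs-20 edgeR called 1 higher, where 0.987% of all genes rose, and 12 were not called. The double mutant had 7 higher and 1 lower, where 8.94% rose and 8.62% fell, and DESeq2 gave the same counts as edgeR in these last comparisons. spl-1, a sphingosine-1-phosphate lyase gene, was the one that fell (-0.57, adjusted p = 0.00817), and gba-2 the one that rose in acs-20 (2.78, adjusted p = 0.00499), both named after their values were seen. gba-2 had 2, 9 and 7 reads in the wild-type libraries and 36, 58 and 15 in those of acs-20. Each wild-type library was below the filter level of 1.02 CPM, so gba-2 was tested through the genotypes in which it was high. This limit holds also for gba-2 in the double mutant (mean 3.75 CPM, 0.59 in wild-type), 1 of the 13 genes counted there. The median log2 fold change of this list was 0.28, 0.12 and 0.92, beside 0.35, -0.039 and 0.33 for the synthesis genes. In the double mutant the acid sphingomyelinase gene asm-2 was at 1.73 (SE 0.182, adjusted p = 3.61e-05), the acid ceramidase gene asah-1 at 1.37 (SE 0.154, adjusted p = 6.27e-05) and the glucosylceramidase gene gba-1 at 0.96 (SE 0.119, adjusted p = 0.000129). gba-1 and gba-2 share 17 bases of exon on opposite strands, and the strand setting of the counts is not given in the sources used here.

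Genes that supply the acyl chains were called lower in the double mutant. Of 9 genes for branched and long fatty acids, edgeR called 5 lower and none higher there against wild-type (DESeq2 6 and 0), where 8.62% of all tested genes fell, and their median was -0.44. acs-1, an acyl-CoA synthetase gene for branched fatty acids, fell by 0.76 on the log2 scale (SE 0.137, adjusted p = 0.00208), let-767, a 3-ketoacyl-CoA reductase gene, by 0.53 (adjusted p = 0.00706), and bcat-1, a branched-chain aminotransferase gene, by 0.44 (adjusted p = 0.00912). The elongase gene elo-5 (-0.56, adjusted p = 0.0389) and art-1 (-0.37, adjusted p = 0.032) were the other calls, named after their values were seen. In eat-2 and acs-20 edgeR called none of the 9. There were 2 and 0 at an unadjusted p under 0.05, where 21.5% and 14% of all tested genes met that limit, and DESeq2 called 1 and 0. acs-1 was at -0.46 in eat-2 (adjusted p = 0.0591) and 0.070 in acs-20 (0.861). The exons of acs-1 and elo-5 overlap an opposite-strand gene by 19 and 162 bases.

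**Figure D5:**
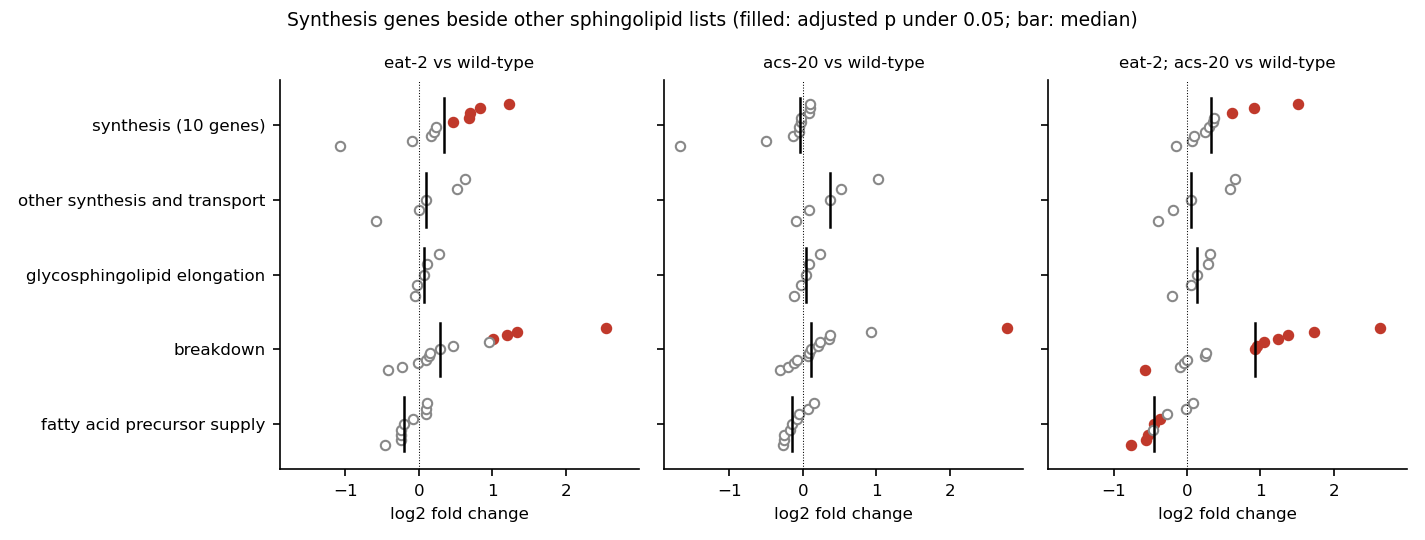
Log2 fold change against wild-type for the 10 synthesis genes and 4 lists of related genes, 1 dot per tested gene, filled red at an adjusted p under 0.05, with a bar at the median of each list. In the double mutant 3 synthesis and 7 breakdown genes are filled above 0, and 5 of 9 precursor genes are filled below 0. The breakdown list includes gba-2, which was tested through the genotypes in which it was high.

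Some markers of stage and of tissues were also called between genotypes, and their part in the results above was not tested except as follows. With the log2 CPM of col-19 as a covariate, an alternative added after the data had been seen, sptl-1, sptl-2, hyl-1 and cgt-1 were still called in eat-2 and sptl-3 was not (log2 0.46, adjusted p = 0.0721). sms-1 was then called in the double mutant (0.37, adjusted p = 0.0146) beside sptl-2, hyl-1 and cgt-1. The stage marker called lower in eat-2 and the double mutant was vit-2, not col-19. No fit used vit-2 as a covariate, so the part of the vit-2 difference in these results was not tested. The summed level of the 2 pharyngeal muscle markers was 153 to 179 CPM in wild-type, 98.9 to 125 in eat-2, 59.4 to 95.2 in acs-20 and 131 to 148 in the double mutant, lower in every mutant library than in wild-type. The 2 body wall muscle markers summed to 4056 to 4651 CPM in wild-type, and to 3018 to 3795 in eat-2 and 2974 to 3837 in the double mutant, without overlap. Neither marker was called in any mutant against wild-type, and most of the sum was unc-54 (mean 3915 CPM in wild-type). The sum of the 4 intestinal markers, most of it act-5 (mean 1993 CPM in wild-type), overlapped between wild-type (2602 to 2749 CPM) and eat-2 (2457 to 3252). It was lower in acs-20 (2319 to 2498), where none of the 4 was called, and in the double mutant (2145 to 2559). Of these 4, ges-1, named after its values were seen, was lower in eat-2 (35.2 ± 3.90 CPM, against 50.04 ± 6.24 in wild-type, adjusted p = 0.0133) and in the double mutant (32.8 ± 1.69, adjusted p = 0.00245). The other 3 intestinal markers had positive log2 fold changes in eat-2 and negative ones in the double mutant, none called. Epidermal, neuronal and germline sums overlapped wild-type in all 3 mutants.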

How the data were processed

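Per the files and labels, the authors deposited whole-number read counts by gene in 1 table per sample (12 samples), with no normalization. FastQC 0.11.5, HTSeq, TopHat2 and DESeq2 appear in the submitters' processing notes, where no roles are stated. For the genome build, the annotation release and the strand setting, the sources used here give nothing. Per the labels, total RNA was extracted from whole worms. The 5 HTSeq summary lines were left out. Reads in no gene were 44.1 to 46.5% of all reads, and reads with several positions 5.21 to 9.99%, so near-identical paralogs may lose counts. No sequences were used here. Symbols, chromosomes and exon lengths came from the Ensembl annotation of WBcel235 (43720 of 46739 identifiers matched).

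The fit used edgeR 4.0.16 under R 4.3.3: filterByExpr by genotype (minimum count 10, minimum total 15, leaving 14390 genes), TMM factors of 0.921 to 1.10, 1 model with 4 genotype means over all 12 samples (8 residual degrees of freedom, common biological coefficient of variation 0.153), and robust quasi-likelihood tests for 6 pairs of genotypes and the interaction. Calls needed an adjusted p under 0.05 (Benjamini-Hochberg, over the 14390 genes). SE is the log2 fold change divided by the root of F, and intervals are 95%. Correlations used log2 CPM with a prior count of 2. The model was run on simulated counts for eat-2 against wild-type only, with 1 spread for all genes and changes only in genes with more reads than lagr-1. The other comparisons and the interaction were not simulated. Alternatives were no filter, RLE factors, the compared groups alone, DESeq2 1.42.0, the replicate number as a block, leaving out each sample, and col-19 as a covariate. Genes named were the 10 members, up to 3 called genes per further list with the smallest p against wild-type, and the 3 nearest profiles of each called member. Genes of the further lists with a fold change given beyond this rule are marked in the text, and others appear there by name alone. Members and lists were chosen with earlier results of these data known. Replicates differed by more than counting noise. The labels do not say whether they were separate cultures, so p-values measure the spread between these samples.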

Additional observations from a re-analysis of the deposited data

How the results depend on the processing

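Of 1249 refitted log2 fold changes of the 10 genes, 1172 kept their direction and side of the threshold, 19 were no longer called, 11 became called and 47 changed sign, none of them a change called at the settings of the report. Most of the 1249 refit values that were not called at those settings, and the 19 losses fall only on the smaller part that was. The counts of members called that moved by over 1.5 times were, with no filter on low counts, 2 for acs-20 against wild-type, 3 for the double mutant against eat-2 and 1 for the interaction, and, with DESeq2, 1 for each of the last pair. The replicate block moved no count of members. Same-numbered samples of different genotypes correlated in their deviations at -0.0912 to 0.429, over 0.1 in 9 of 18 pairs, and 8 of 12 samples correlated best with their own number. The main fit did not take the numbers as pairs, and whether they mark shared handling was not tested. The count of all genes called for the double mutant against eat-2 was 653 with the replicate block, 579 with no filter and 542 with DESeq2, from 304. For acs-20 against wild-type it was 539 with no filter, 482 with DESeq2 and 808 with the col-19 covariate, from 318. For the interaction it was 56, 99, 125 and 54 with block, no filter, DESeq2 and covariate, from 27. The covariate gave 1972 for eat-2 and 3837 for the double mutant against wild-type, from 1103 and 2526.

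Leaving out single samples, the members called ran from 3 to 5 in eat-2, 0 to 0 in acs-20 and 2 to 4 in the double mutant against wild-type, 0 to 0 in the double mutant against eat-2, 3 to 4 against acs-20, 4 to 5 in eat-2 against acs-20 and 0 to 1 for the interaction. All genes called ran from 576 to 1272, 161 to 345, 1573 to 2676, 154 to 434, 919 to 2026, 1003 to 1663 and 8 to 150 in the same order. Values near 0 that changed sign in these fits ran, against wild-type in acs-20, from -0.12 to 0.024 for sptl-1, -0.10 to 0.069 for sptl-3, -0.12 to 0.022 for hyl-1, -0.165 to 0.194 for ttm-5 and -0.12 to 0.27 for cgt-1, and in the double mutant from -0.027 to 0.15 for sptl-3. Double mutant against eat-2 gave -0.245 to 0.0845 for sptl-2, -0.17 to 0.23 for hyl-1 and -0.11 to 0.037 for cgt-3, and against acs-20 -0.0060 to 0.17 for sptl-3, -0.041 to 0.048 for hyl-2 and -0.0715 to 0.0266 for cgt-3. For eat-2 against acs-20 they ran from -0.065 to 0.085 for cgt-3, -0.0096 to 0.15 for sms-1 and -0.014 to 1.42 for lagr-1, and for the interaction from -0.11 to 0.29 for hyl-1, -0.063 to 0.28 for ttm-5, -0.075 to 0.39 for cgt-1 and -0.0522 to 0.105 for sms-1. hyl-2 in the double mutant against acs-20 was -0.0195 with RLE factors, -0.0204 with DESeq2, -0.0179 with no filter and -0.00766 with the compared groups alone. With the covariate, hyl-1 in acs-20 was 0.0023, and the interactions of cgt-1 and sms-1 were -0.31 and -0.14. The cause of these differences was not tested. lagr-1 rests on 2 to 32 reads per library.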
